A study of Mus musculus with 6 samples.

Results

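The genes described here are 9 transcription factor genes of secretory and glandular epithelium, chosen by symbol: Bhlha15, Creb3l1, Spdef, Elf5, Ehf, Elf3, Sox10, Sox9 and Sox2. They are 9 of the 24054 gene rows in a count table from mouse salivary gland, and all 9 passed the filter on low counts. The table holds 3 control libraries and 3 libraries from K5-rtTA:TetO-RANKL mice (called K5-RANKL), in which the keratin 5 promoter of basal epithelial cells drives a doxycycline-dependent activator of a RANKL transgene. RANKL is a cytokine of the TNF family, and the question addressed is how its expression alters salivary messenger RNA. Controls were monogenic; the sources used here do not say which transgene they carried, nor the strain, the sex or the glands taken. Mice of both groups were 9 weeks old when doxycycline was started in their food and water, and received it for 2 weeks. Each library is a pool of gland tissue from 5 mice, so the spread between libraries is a spread between pools.

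Secretory cells of exocrine glands depend on factors that set up and scale the secretory machinery. Bhlha15 encodes MIST1, a basic helix-loop-helix factor of serous acinar cells that promotes their granule and vesicle apparatus and acts downstream of the unfolded protein response factor XBP1. Creb3l1 encodes a membrane-anchored bZIP factor of the endoplasmic reticulum that is released by proteolysis and raises genes of protein export. Spdef, Elf5, Ehf and Elf3 encode epithelium-specific members of the ETS family. SPDEF promotes mucous and goblet cell maturation, and ELF5 drives alveolar secretory differentiation of the mammary gland, where RANKL signalling is known to act upstream of it. SOX10, SOX9 and SOX2 are high-mobility-group factors that mark progenitors and acinar or duct lineages during salivary gland development.

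Proximal promoters are shown for Bhlha15 and Elf5, which are among the factors that fell, and for Elf3, which did not pass the test. Windows of Spdef and Sox2, which also fell, and of the second Elf5 start are described but not printed. Each sequence is the 250 bases before a transcription start in RefSeq annotation of GRCm38.p6, written 5′ to 3′ on the strand of the gene. Capitals mark E-boxes (CANNTG, the site class of MIST1 and other basic helix-loop-helix factors) and matches to the NF-kB consensus, searched on both strands.
Bhlha15, chr5:144190036-144190285, plus strand: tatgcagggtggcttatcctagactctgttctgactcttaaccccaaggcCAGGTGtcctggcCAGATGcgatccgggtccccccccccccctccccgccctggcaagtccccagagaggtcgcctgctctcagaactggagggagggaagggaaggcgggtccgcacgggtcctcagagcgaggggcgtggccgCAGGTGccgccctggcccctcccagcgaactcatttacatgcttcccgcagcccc
Elf5, chr2:103411848-103412097, plus strand: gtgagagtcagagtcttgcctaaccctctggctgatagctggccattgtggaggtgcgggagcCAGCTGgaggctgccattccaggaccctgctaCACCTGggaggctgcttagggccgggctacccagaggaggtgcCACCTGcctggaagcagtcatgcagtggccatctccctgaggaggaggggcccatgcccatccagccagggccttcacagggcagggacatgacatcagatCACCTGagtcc
Elf3, chr1:135258473-135258722, minus strand: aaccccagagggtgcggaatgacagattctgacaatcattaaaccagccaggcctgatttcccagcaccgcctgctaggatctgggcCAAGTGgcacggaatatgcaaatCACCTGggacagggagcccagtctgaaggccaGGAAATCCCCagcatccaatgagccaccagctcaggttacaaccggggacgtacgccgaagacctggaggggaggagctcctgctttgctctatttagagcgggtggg
The Bhlha15 window held 3 E-boxes, the Elf5 window 4 and the Elf3 window 2, and 66.2% of 32851 promoter windows of this length held at least 1. Of the Elf5 E-boxes 1 had the letters CAGCTG, found in 13.0% of windows. The Elf3 window held the only NF-kB match, beginning 108 bases before the start and overlapping an ETS core (GGAA), and 3.9% of all windows held a match to the NF-kB consensus. The Bhlha15 window held 1 copy of CCACG, the core of unfolded protein response elements, which 28.3% of windows held. RefSeq promoter entries matched 5 of the 9 genes. The other windows (Spdef, the second Elf5 start and Sox2) held 0, 1 and 0 E-boxes. None of them held CAGCTG or an NF-kB match. A match describes letters only.

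Total counts ran from 13875951 to 17921815 in controls and from 14149734 to 16412579 in K5-RANKL libraries. Levels are CPM, counts per 1000000 of a library size adjusted by the TMM method (trimmed mean of M values). The TMM factors were 0.677 to 0.735 in controls and 1.32 to 1.47 in K5-RANKL libraries. On this scale the median log2 fold change of the 14044 genes tested was 0.01, and with library totals alone it was 1.01. Every direction below is on the TMM scale unless another is named. Tnfsf11, which encodes RANKL, was at 3.78, 1.86 and 0.938 CPM in the control pools and at 701, 405 and 723 CPM in the K5-RANKL pools. Markers of salivary acinar cells were present in every library, with summed levels of 196800 to 238300 CPM over 12 genes in controls and of 25380 to 35930 CPM in K5-RANKL libraries, and all 12 fell. Of 9 granular and striated duct markers tested 7 fell, Klk1 by 1.56, and Cftr rose. Among 5 endothelial markers Cdh5 (0.44) and Pecam1 (0.37) rose and 2 fell. Of 5 skeletal muscle and 5 adipocyte markers 0 passed in edgeR and 0 had an unadjusted p under 0.05, while limma voom called 4 and 1 of them higher and library totals all 5 of each. The muscle markers summed to 8.83 to 86.8 CPM in controls, lowest in control 2, and to 105 to 164 CPM in K5-RANKL libraries.

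Of the 9 factors 8 fell, 0 rose and Elf3 did not pass. Their median log2 fold change was -1.18, against 0.01 for all genes tested. A gene was called at an adjusted p under 0.05 in edgeR's quasi-likelihood test with Benjamini-Hochberg adjustment over all genes tested. By this rule 66.2% of the 14044 genes tested were called, 32.1% as lower and 34.2% as higher. The groups did not overlap for the 8 factors that fell, as for 70.4% of all genes tested. The sizes were graded. Bhlha15, Elf5, Spdef and Creb3l1 were 3.70 to 5.42-fold lower, Sox10 and Sox2 2.26 and 2.21-fold lower, and Ehf and Sox9 1.52 and 1.28-fold lower.

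**Figure D1:**
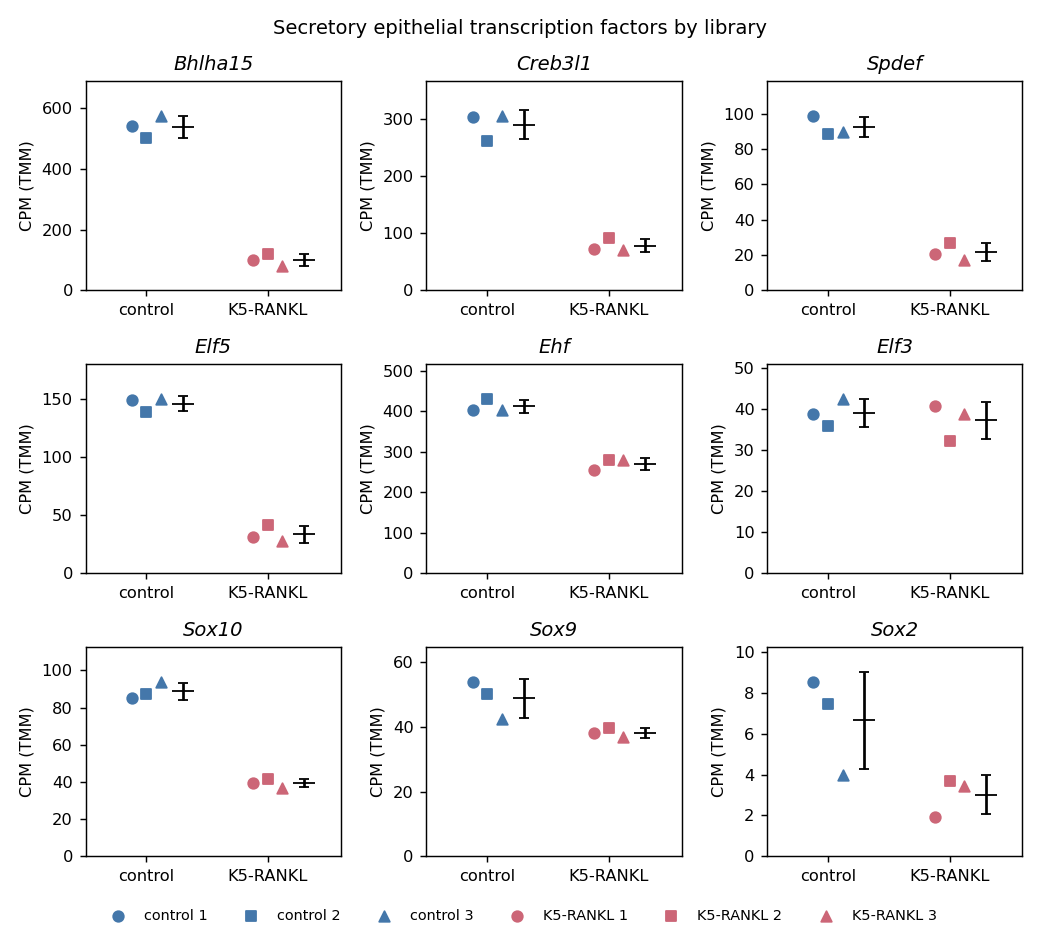
CPM on TMM-scaled library sizes (y axis, from 0) of the 9 factors in 3 control (blue) and 3 K5-RANKL (red) libraries; symbols are libraries, and black bars are the mean and SD of a group. Bhlha15 sits at 501 to 574 CPM in the control pools and 80.8 to 119 CPM in K5-RANKL libraries, and among the 9 panels the groups overlap for Elf3.

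Bhlha15 (Entrez 17341, chromosome 5 from 144190286 to 144194441, GRCm38) was at 541, 501 and 574 CPM in the control pools and 99.0, 119 and 80.8 CPM in the K5-RANKL pools. The lowest control was above the highest K5-RANKL library by more than the spread within either group. The means were 539 ± 36.3 and 99.5 ± 19.0 CPM (SD, n = 3 each). On the log2 scale it fell by 2.44 with an SE of 0.12 (edgeR adjusted p = 4.83e-09). In bulk tissue, fewer acinar cells and less RNA of the gene per cell cannot be told apart. Plasma cells also express Bhlha15. Over 8 plasma cell markers the summed level was 412 to 523 CPM in the control pools and 226 to 272 CPM in K5-RANKL libraries; of 7 tested, 4 rose and 2 fell, and their part in the result was not tested. The markers that fell were Igj, the joining chain of secreted immunoglobulin, from 235 ± 50.1 to 106 ± 23.8 CPM (SD, n = 3 each), a call lost by library totals (-0.16), and Derl3, an endoplasmic reticulum degradation gene, which fell by 2.32 (edgeR adjusted p = 5.91e-09). Prdm1, the plasma cell regulator BLIMP1, rose by 1.73 (edgeR adjusted p = 2.9e-07).

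Genes listed as MIST1 secretory targets moved the same way as Bhlha15. All 5 that were tested fell, with a median of -2.03, and they also fell by library totals. Tmed6, with a total of 1 count, in K5-RANKL 3, was not tested. Copz2, a coat protein subunit of retrograde vesicles, fell by 1.93 from 103 ± 5.97 to 26.9 ± 3.24 CPM (SD, n = 3 each). Rab3d, a GTPase of secretory granules, fell by 1.29 from 288 ± 18.0 to 117 ± 5.75 CPM (SD, n = 3 each). The other three, Rab26, Atp2c2 and Gjb1, stood at -2.38, -2.30 and -2.03. Basic helix-loop-helix factors bind as pairs, and MIST1 can pair with class I partners or itself. Among 7 partner and inhibitor genes, 3 rose, 3 fell and Tcf12 did not pass. The E-protein gene Tcf3 rose by 0.68, and the inhibitor gene Id2 fell by 0.74 (edgeR adjusted p = 1.28e-06 and 1.08e-06). By library totals Id2 was at 0.26, with 6 of the 7 genes higher and 1 lower.

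Creb3l1 (Entrez 26427, chromosome 2 from 91982328 to 92024170) was at 304, 261 and 306 CPM in the control pools and 72.9, 91.1 and 71.4 CPM in the K5-RANKL pools. All controls were above all K5-RANKL libraries, and K5-RANKL 2 was the highest of its group. The gene fell by 1.89 (SE 0.10, edgeR adjusted p = 1.11e-10). Creb3l1 is also expressed in collagen-secreting fibroblasts. The 6 fibroblast markers summed to 557 to 757 CPM in the control pools and to 2629 to 3086 CPM in K5-RANKL libraries, with 5 rising and Dcn not passing (-0.12). The collagen genes Col1a1, Col1a2 and Col3a1 rose by 2.86, 2.54 and 3.12, while Pdgfra and Lum rose by 0.69 and 0.28. The part of fibroblasts in the Creb3l1 result was not tested.

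Related secretory bZIP genes were lower too. Of 7 tested genes of the CREB3 family and its unfolded protein response relatives other than Creb3l1, 6 fell and 0 rose, and the median was -0.79. Atf6b did not pass. By library totals 4 rose and 1 fell. Creb3l4, an epithelial paralogue, fell by 1.86 (SE 0.11) from 29.7 ± 0.717 to 8.20 ± 1.48 CPM (SD, n = 3 each), and also fell by library totals, by 0.87. Xbp1 fell by 0.86 (SE 0.08) from 561 ± 3.998 to 309 ± 18.2 CPM (SD, n = 3 each), and stood at 0.13 by library totals. Of 19 genes of the COPII coat, which carries cargo out of the endoplasmic reticulum, and of endoplasmic reticulum export, 17 fell and 2 rose, with a median of -0.75. By library totals 4 fell and 10 rose. The inner coat gene Sec23b, whose product activates the SAR1 GTPase, fell by 1.63 (SE 0.07) from 242 ± 13.2 to 77.8 ± 2.50 CPM (SD, n = 3 each), and the exit-site scaffold gene Sec16a by 1.44 (SE 0.07). The genes that rose were Sec23a (0.37), the paralogue of Sec23b, and Sec24b (0.28).

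Spdef and Elf5, of the ETS family, fell to a similar extent. Spdef (Entrez 30051, chromosome 17 from 27714446 to 27731003) was at 98.6, 88.5 and 89.4 CPM in the control pools and 20.7, 26.9 and 17.3 CPM in the K5-RANKL pools. The gene fell by 2.10 (SE 0.13, edgeR adjusted p = 8.21e-08). Elf5 (Entrez 13711, chromosome 2 from 103412098 to 103450989) was at 149, 139 and 150.5 CPM in the control pools and 31.5, 42.0 and 27.7 CPM in the K5-RANKL pools. It fell by 2.12 (SE 0.13, edgeR adjusted p = 5.97e-08). For both genes all controls lay above all K5-RANKL libraries, K5-RANKL 2 was the highest of its group and K5-RANKL 3 the lowest.

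Genes listed for the SPDEF goblet programme went both ways where they could be tested. Of the 13 genes found, 7 were tested: 3 fell and 1 rose, while Agr2, Foxa2 and Clca1 did not pass. By library totals 2 fell and 3 rose. The gel-forming mucin genes Muc5b and Muc5ac and the trefoil gene Tff3 had at most 2 counts in any library. Fcgbp, encoding a mucus-associated IgG Fc binding protein, rose by 6.55 (SE 0.14, edgeR adjusted p = 8.17e-14) from 8.29, 7.36 and 6.33 CPM to 777, 572 and 706 CPM. Those lower were Creb3l4 (above), Galnt12 (-1.10) and Gcnt3 (-2.56), of which Galnt12 and Gcnt3 encode enzymes that build mucin-type glycans. Milk protein and prolactin signalling genes listed as ELF5 targets did not share a direction. Of 6 tested, 2 rose, 3 fell and Csn1s1 did not pass. The only milk protein gene among those that fell was Csn3, whose groups overlapped in CPM and whose call was lost by library totals (-0.06). By library totals 3 rose and 0 fell. Without control 3, and likewise without K5-RANKL 3, 1 fell. DESeq2, limma voom and edgeR without robust shrinkage each called 3 higher. Csn1s1, encoding alpha-casein, had 0 counts in every control and 179, 15 and 16 counts in K5-RANKL libraries. Csn2, encoding beta-casein, had 2, 0 and 3 counts in controls and 261, 123 and 141 counts in K5-RANKL libraries. It rose by 5.70 (SE 0.46, edgeR adjusted p = 1.31e-07), to 10.8, 6.58 and 6.56 CPM. Prlr, the prolactin receptor gene, fell by 0.84 (edgeR adjusted p = 1.76e-07) and stood at 0.16 by library totals.

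Ehf and Elf3, the other epithelial ETS genes, kept most of their level. Ehf (Entrez 13661, chromosome 2 from 103263431 to 103303275) was at 403, 431 and 403 CPM in the control pools and 254, 279 and 279 CPM in the K5-RANKL pools. The groups were apart, and the gene fell by 0.61 (SE 0.07, edgeR adjusted p = 1.27e-06), with 0.39 by library totals. Elf3 (Entrez 13710, chromosome 1 from 135253574 to 135258472) was at 38.8, 35.9 and 42.5 CPM in the control pools and 40.7, 32.2 and 38.9 CPM in the K5-RANKL pools. The groups overlapped, and the log2 fold change was -0.07 (SE 0.10, edgeR adjusted p = 0.548). By library totals it was 0.94 (edgeR adjusted p = 1.66e-07), and without K5-RANKL 2 it was 0.02. An antisense gene overlaps Elf3 in GENCODE annotation, and the strand setting of the counting is not given in the sources used here.

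Elf5 and Ehf are neighbours on chromosome 2, on opposite strands, with 108.8 kb between them and 0 protein-coding genes in that interval in RefSeq annotation. Their counts can be compared within a library, where no scaling enters. The ratio of Ehf to Elf5 counts was 2.70, 3.09 and 2.68 in controls and 8.07, 6.66 and 10.1 in K5-RANKL libraries. The ratio of Elf3 to Elf5 counts was 0.26, 0.258 and 0.283 in controls and 1.29, 0.767 and 1.41 in K5-RANKL libraries. Neither ratio overlapped between groups. These and the other pairs were chosen after their values were seen, so no test is given. Elf3 counts relative to Spdef counts went from 0.393, 0.406 and 0.476 to 1.97, 1.19 and 2.24. The epithelial ETS genes therefore changed unequally within the same libraries.

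Other ETS genes mostly rose. Of 20 tested outside the set of 9, 13 rose, 2 fell and 5 did not pass. Their median was 0.83, against 0.01 for all genes; by library totals 19 rose and 1 fell. Those that fell were Etv1 (-1.57) and Ets2 (-0.20, and 0.80 by library totals). Spib, a factor of microfold and lymphoid cells, rose by 5.02 (SE 0.10) from 19.7 ± 2.49 to 639 ± 29.9 CPM (SD, n = 3 each). Spi1, the myeloid factor PU.1, rose by 2.25 (SE 0.10) from 6.79 ± 0.413 to 32.5 ± 1.14 CPM (SD, n = 3 each). Spib is also on the list of 7 microfold cell markers, all of which rose, Tnfaip2 by 5.57; their summed levels were 165 to 175 CPM and 1631 to 1745 CPM. The 5 leukocyte markers, led by Laptm5 (1.46), all rose, with summed levels of 292 to 324 CPM in the control pools and 642 to 700 CPM in K5-RANKL libraries; their part in the rise of Spi1 was not tested.

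**Figure D2:**
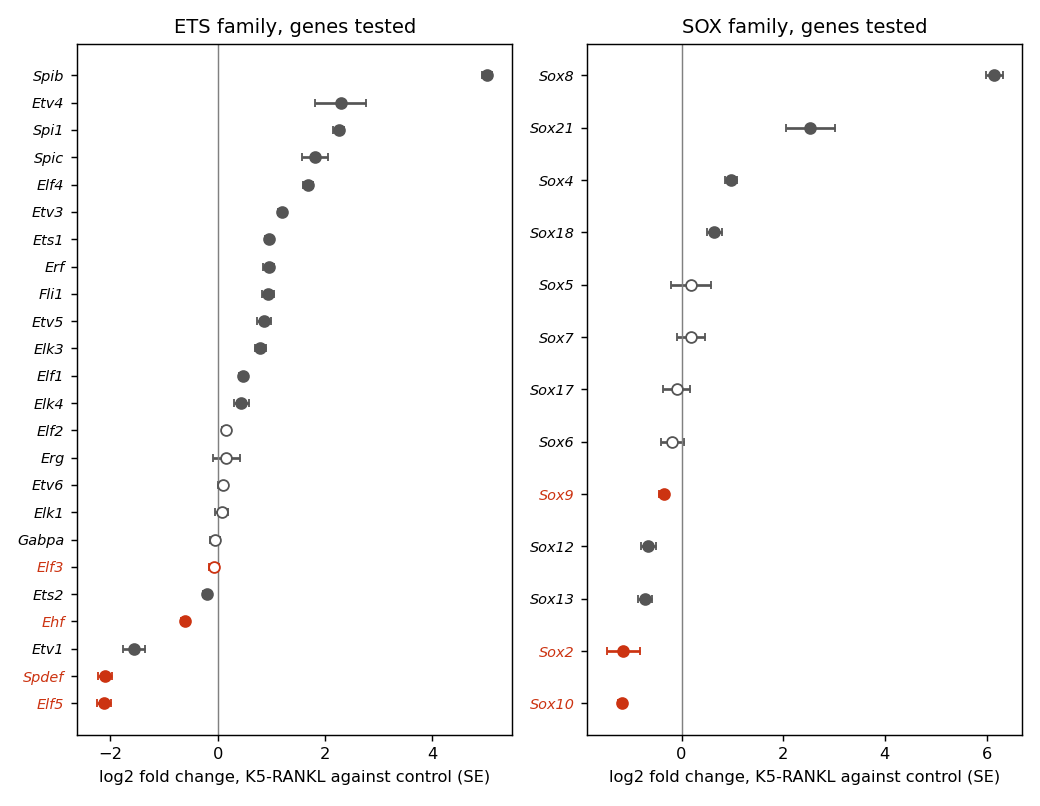
Log2 fold change of K5-RANKL against control (x axis, bars are SE) for 24 ETS genes and 13 SOX genes that were tested; red marks the 9-gene set, and open circles are genes that did not pass. Elf5 and Spdef stand lowest in the ETS family at -2.12 and -2.10 and Sox10 lowest in the SOX family at -1.18, while Spib and Sox8 stand highest at 5.02 and 6.16.

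Sox10 (Entrez 20665, chromosome 15 from 79154913 to 79164490) was at 85.1, 87.3 and 93.97 CPM in the control pools and 39.4, 41.6 and 36.9 CPM in the K5-RANKL pools. The groups were well apart, and the gene fell by 1.18 (SE 0.08, edgeR adjusted p = 4.9e-10). By library totals the call was lost (-0.18, edgeR adjusted p = 0.0787). Sox10 is expressed in salivary epithelium, in myoepithelial cells, in Schwann cells and in melanocytes. The 10 Schwann cell markers summed to 76.5 to 89.5 CPM in the control pools and 122 to 125 CPM in K5-RANKL libraries. Of 8 tested, 2 rose, 3 fell and 3 did not pass; Mbp, encoding myelin basic protein, rose by 0.85. Gfra3, a glial receptor gene, fell by 1.22, a call lost by library totals. Pmp2 had 0 counts in controls. The 6 myoepithelial markers summed to 412 to 422 CPM and 346 to 394 CPM, with 4 falling and Tagln rising (0.63). Acta2, smooth muscle actin, was at -0.39 and Cnn1, calponin, at -1.21; by library totals Acta2 was at 0.60 and the Cnn1 call was lost. The 5 melanocyte markers summed to at most 2.24 CPM in any library. The part of Schwann and myoepithelial cells in the result was not tested.

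Sox9 (Entrez 20682, chromosome 11 from 112782210 to 112787757) was at 54.0, 50.1 and 42.3 CPM in the control pools and 37.9, 39.7 and 36.7 CPM in the K5-RANKL pools. The groups did not overlap, though control 3 lay nearer to the K5-RANKL libraries than to the other controls. The gene fell by 0.35 (SE 0.09, edgeR adjusted p = 0.00204), and stood at 0.64 by library totals. Sox9 is the master factor of cartilage as well. The 6 chondrocyte markers summed to at most 1.66 CPM, with Acan and Col2a1 at 0 counts in all controls. Within libraries the ratio of Sox9 to Sox10 counts was 0.634, 0.574 and 0.45 in controls and 0.962, 0.955 and 0.995 in K5-RANKL libraries. The groups were apart on this ratio, which no scaling touches.

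Sox2 (Entrez 20674, chromosome 3 from 34649995 to 34652461) was the lowest of the factors, with 93, 76 and 51 counts in controls and 46, 69 and 74 counts in K5-RANKL libraries. In CPM this was 8.57, 7.46 and 3.99 against 1.91, 3.69 and 3.45. Control 3 lay close to the K5-RANKL libraries, and the gene fell by 1.14 (SE 0.32, edgeR adjusted p = 0.00998). By library totals the call was lost (-0.15, edgeR adjusted p = 0.621). Sox2 lies inside the noncoding gene Sox2ot, which had 2 to 6 counts in any library.

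Other SOX genes went both ways. Of 10 tested outside the set of 9, 4 rose, 2 fell and 4 did not pass; by library totals 9 rose and 0 fell. Those that fell were Sox12 (-0.65) and Sox13 (-0.73), which were at 0.34 and 0.27 by library totals. Sox8, the SOX10 and SOX9 relative that microfold cells express, rose by 6.16 (SE 0.16, edgeR adjusted p = 7.03e-15) from 0.921, 0.491 and 0.469 CPM to 45.2, 43.8 and 45.2 CPM. Sox4, a factor of progenitor cells, rose by 0.97 (SE 0.12) from 14.4 ± 3.13 to 28.3 ± 1.47 CPM (SD, n = 3 each). Of 10 genes listed as partners of SOX10 and SOX9 in the gland, 7 rose and 3 fell. By library totals 8 rose and 0 fell. Those that fell were Fgf10 (-1.19), Fgfr2 (-0.58) and Kit (-0.96). FGF10 is a growth factor acting on salivary end buds, FGFR2 is its receptor and KIT is a receptor of end bud progenitors. By library totals Fgfr2 was at 0.42 and Kit at 0.03.

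Levels were compared between the factors as CPM per kb of exon in GENCODE annotation, which allows for gene length but assumes that every annotated exon is used. In controls the order was Bhlha15 (154 ± 10.4), Creb3l1 (111.5 ± 9.65), Ehf (73.9 ± 2.90), Spdef (40 ± 2.43), Sox10 (29.1 ± 1.51), Elf5 (24.9 ± 1.04), Elf3 (17.6 ± 1.499), Sox9 (11.8 ± 1.44) and Sox2 (3.24 ± 1.16 CPM per kb; SD, n = 3 each), and no neighbours overlapped between libraries. In K5-RANKL libraries Ehf stood first at 48.6 ± 2.60 CPM per kb. Creb3l1 (30.2 ± 4.21) and Bhlha15 (28.5 ± 5.43) followed and overlapped. Elf3 came next at 16.8 ± 2.03, then Sox10 at 12.9 ± 0.766, Spdef at 9.39 ± 2.12 and Sox9 at 9.22 ± 0.363, these last overlapping, Elf5 at 5.73 ± 1.26 and Sox2 at 1.46 ± 0.470 CPM per kb (SD, n = 3 each). Bhlha15 thus went from rank 1 to rank 3, and Elf3 from rank 7 to rank 4 with little change in its own level.

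**Figure D3:**
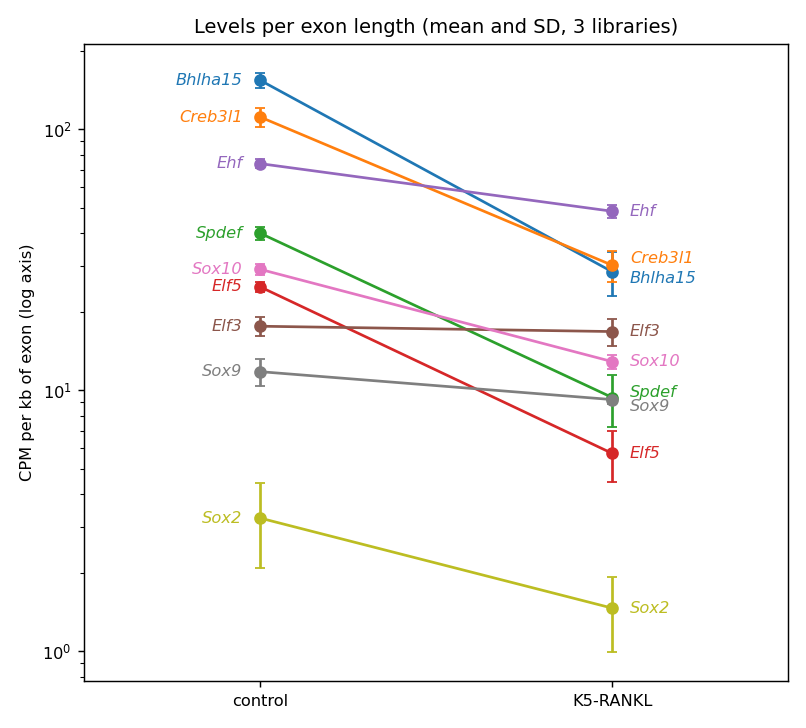
Mean level in CPM per kb of exon (log y axis, bars are SD over 3 libraries) of the 9 factors in control and K5-RANKL libraries. Bhlha15 drops from 154 to 28.5 CPM per kb and crosses below Ehf, which goes from 73.9 to 48.6, while the line of Elf3 is nearly level.

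A scale-free view was taken from the counts of each factor over the summed counts of 6 general epithelial genes (Epcam, Cdh1, Krt8, Krt18, Cldn7 and Cldn3) in the same library. All 9 factors were lower in K5-RANKL libraries on this ratio, and no groups overlapped. The share of all genes that were lower or did not overlap on this ratio was not counted. The reference sum was higher in K5-RANKL libraries on the TMM scale, which lowers the ratio of every gene. Elf3, whose groups overlapped in CPM, did not overlap here. The log2 difference was -3.01 for Bhlha15, -2.70 for Elf5, -2.67 for Spdef, -2.45 for Creb3l1, -1.73 for Sox10, -1.69 for Sox2, -1.17 for Ehf, -0.91 for Sox9 and -0.63 for Elf3. The exact permutation test gave p = 0.1 for each, two-sided, which is the smallest that 3 against 3 libraries allow, and 0.1 after adjustment over the 9. The 6 epithelial genes themselves summed to 985 to 1032 CPM in the control pools and 1455 to 1523 CPM in K5-RANKL libraries. Of these 5 rose, led by Krt8 (1.11) and Epcam (0.79), and Cldn3 did not pass. All 9 factors are divided by the same sum in each library, so the ratio moves them together and leaves their order as it is on the TMM scale. On library totals 4 factors still fell, with Bhlha15 at -1.45, Elf5 at -1.13, Spdef at -1.10 and Creb3l1 at -0.90.

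**Figure D4:**
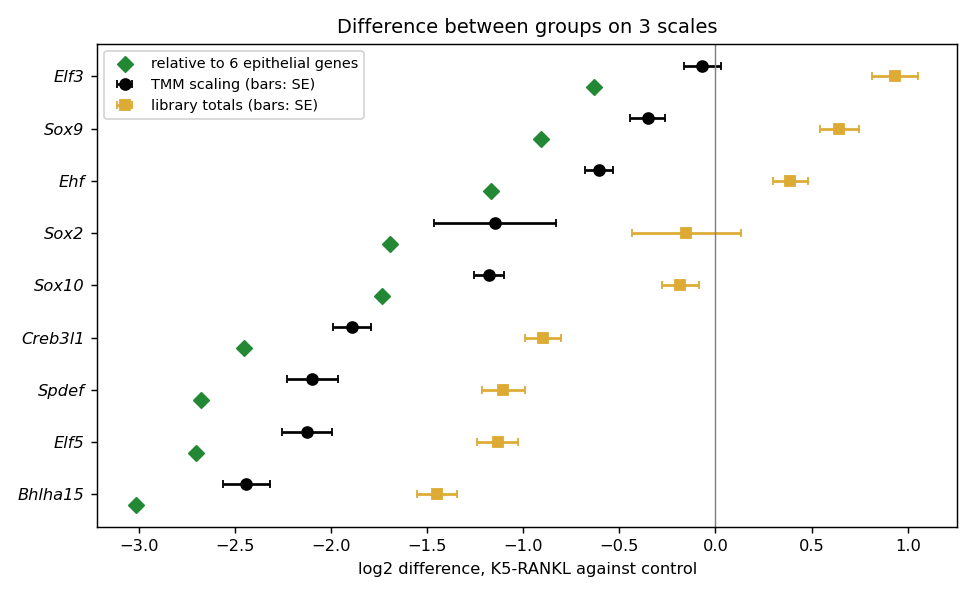
Log2 difference of K5-RANKL against control (x axis) of the 9 factors on TMM scaling (black, bars are SE), on library totals (yellow, bars are SE) and relative to 6 epithelial genes in the same library (green, no error drawn). Bhlha15, Elf5, Spdef and Creb3l1 lie below 0 on all 3 scales, and Ehf, Sox9 and Elf3 lie above 0 on library totals at 0.39, 0.64 and 0.94.

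The K5-RANKL libraries differed among themselves. Of the 9 factors 8 were highest in K5-RANKL 2, and Elf3 was lowest there. How many of all genes were highest in K5-RANKL 2 was not counted. The log2 distance of K5-RANKL 2 from the mean of the remaining libraries of its group was 0.51 for Spdef and Elf5. It was 0.525 for Sox2, 0.41 for Bhlha15, 0.34 for Creb3l1, 0.12 for Sox10, 0.09 for Sox9, 0.07 for Ehf and -0.31 for Elf3. For Ehf, K5-RANKL 2 and 3 were nearly level (279.4 and 278.9 CPM). For Sox2 the distances of K5-RANKL 1 and 3 were -0.90 and 0.38, so K5-RANKL 1 was the library that stood apart. By the same measure Tnfsf11 in K5-RANKL 2 was at -0.82, and the summed acinar markers at 0.44. The granular and striated duct markers were at 0.26 and the 5 basal cell markers, led by Krt5, at -1.08. In K5-RANKL 3 the distance was -0.42 for Bhlha15, -0.45 for Spdef, -0.39 for Elf5 and 0.44 for Tnfsf11. In K5-RANKL 1 it was 0.015, -0.065, -0.11 and 0.37 for the same genes. All 5 basal markers rose against controls, with summed levels of 98.5 to 104 CPM in the control pools and 971, 439 and 885 CPM in the K5-RANKL pools. The genes share the library, so these are not independent observations, and their part in the result was not tested. Without K5-RANKL 2 the same 8 factors fell, with Bhlha15 at -2.59, Elf5 at -2.31 and Spdef at -2.28.

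**Figure D5:**
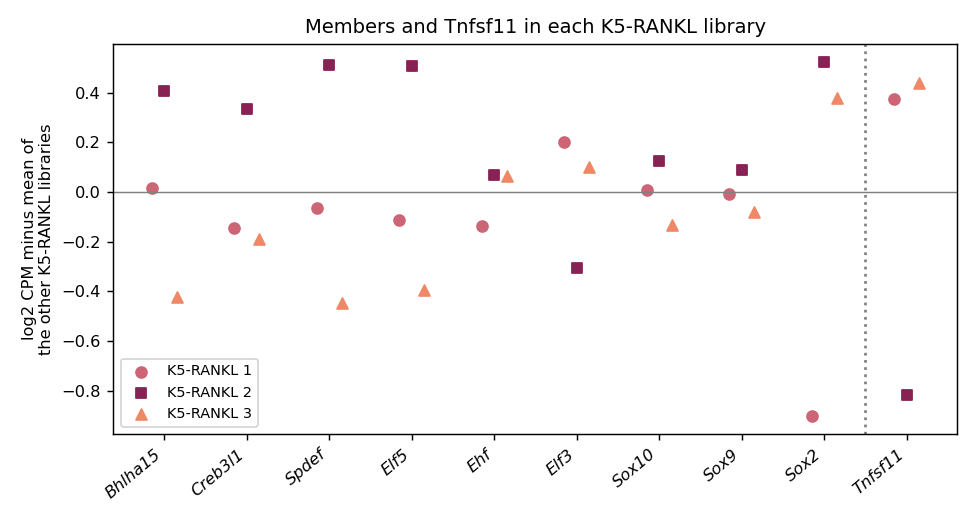
Log2 CPM of each factor and of Tnfsf11 in each K5-RANKL library minus the mean of the remaining libraries of the group (y axis); symbols are libraries. K5-RANKL 2 lies above 0 for 8 factors and below 0 for Elf3 (-0.31) and Tnfsf11 (-0.82).

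Closeness of profile to each factor was the root mean square difference of log2 CPM, centred on its mean, over the 6 libraries. The search covered 10226 genes averaging at least 5 CPM, and left out the factors themselves and predicted or clone-named gene models. Factors were therefore not compared with each other by this measure. Of the genes searched, Aqp5, the water channel of acinar cells, and Myrip, a granule transport protein gene, were the closest to Elf5 and Spdef. The differences were 0.06 and 0.06 log2 for Elf5 and 0.07 and 0.07 for Spdef. Aqp5 was at 484 ± 34.5 CPM in the control pools and 112.5 ± 23.3 CPM in K5-RANKL libraries (SD, n = 3 each). Smco4 and Gcdh were closest to Creb3l1 (0.03 and 0.05), Hsbp1l1 and Snph to Bhlha15 (0.07 and 0.08), Tcn2 and Pon3 to Sox10 (0.03 and 0.04), Ercc6l2 and Slc11a2 to Ehf (0.02 each), Galk2 and Lyplal1 to Sox9 (0.03 and 0.04), and Nelfe and Rmi1 to Elf3 (0.03 each). For Sox2 the closest, Tmem238 and H2afj, were at 0.21 each, so no gene searched followed its low counts closely.

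Among 27 tested genes of a wider list of salivary epithelial factors, 15 fell and 10 rose, while Klf5 and Ovol2 did not pass. Their median was -0.50; by library totals 2 fell and 18 rose. Ascl3, a factor of duct ionocytes and progenitors, fell by 2.37 (SE 0.13) from 26.1 ± 2.06 to 5.13 ± 1.04 CPM (SD, n = 3 each), a size like that of Bhlha15. Barx2, a homeobox factor of gland epithelium, fell by 1.21 (SE 0.09) from 49.0 ± 1.21 to 21.3 ± 2.12 CPM (SD, n = 3 each), a call lost by library totals (-0.21). Those that rose included Trp63 (1.04), the factor of basal epithelial cells, and Grhl2 (0.31), an activator of epithelial junction genes.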

How the data were processed

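RNA was extracted with TRIzol and, per the labels' protocols, 250 ng was made into TruSeq Stranded mRNA libraries. Values are raw read counts per gene as the authors deposited them. STAR and mm10 are named in the submitters' processing notes. The sources used here do not give the counting tool, annotation or strand setting. Nothing says whether the pools share a batch, so a batch that followed the groups could not be told apart from them. The p-values rest on the spread between pools, estimated with information shared across genes, and not on the spread between mice.

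Genes were kept by filterByExpr (minimum count 10). A robust quasi-likelihood test of edgeR compared the groups over all 6 libraries, two-sided and without covariates, with TMM scaling and Benjamini-Hochberg adjustment over 14044 genes. The SE is the absolute log2 fold change over the root of F. Profiles used log2 CPM with a prior count of 2. The fit was tested on simulated data with 200 changed genes, where 28 of 197 calls were false. This share was above the nominal share of the threshold, so calls are less firm than their adjusted p, those near the threshold most. Gene positions and promoters are from RefSeq (GRCm38.p6), exon lengths from GENCODE (GRCm38). Versions were edgeR 4.0.16 and DESeq2 1.42.0 with limma 3.58.1, in R 4.3.3.

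The 9 genes and all lists were chosen with earlier results of these data known. Genes named are the 9, in each list the 2 called genes with the smallest p and, for cell types, the gene with the highest mean CPM, and the 2 closest profiles of each factor; others were named after their values were seen. Alternatives were other scalings, filters and tests, and leaving out each library.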

Additional observations from a re-analysis of the deposited data

How the results depend on the processing

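The 8 calls among the 9 factors held under RLE and upper-quartile scaling, TMM without the 50 most abundant genes, both filters, DESeq2, limma voom, edgeR without robust shrinkage and without each library in turn. Library totals alone were the exception: 4 factors were lower and 3 higher there, and of all genes 11733 were higher and 698 lower. On that scale Ehf, Elf3 and Sox9 stood at 0.39, 0.94 and 0.64, and Sox10 and Sox2 at -0.18 and -0.15. Other named genes that changed sign by library totals were Ets2 (0.80), Sox12 (0.34), Sox13 (0.27), Fgfr2 (0.42), Xbp1 (0.13), Id2 (0.26), Prlr (0.16), Kit (0.03), Acta2 (0.60), Comp (0.99), Ercc6l2 (0.42), Slc11a2 (0.37), Nelfe (0.92), Rmi1 (0.97), Galk2 (0.68) and Lyplal1 (0.58). Agr2 (0.32), Atf6b (0.997), Cldn3 (0.99), Dcn (0.88), Ovol2 (0.69) and Tcf12 (0.94), below 0 on the TMM scale, did so too. The calls of Fgf10 and Galnt12 were lost there (-0.19 and -0.10). The median log2 fold change over all genes tested was 1.01 by library totals, and the cause was not tested. Without each library in turn, Elf3 ran from -0.14 to 0.021, and the uncalled Comp from -0.68 to 0.49, Fabp4 from -0.092 to 0.34 and Rmi1 from -0.11 to 0.059; Comp was 0.008 without the low-count filter. With Epcam alone as the epithelial reference the log2 ratios stood at -2.68 for Creb3l1, -1.40 for Ehf, -0.86 for Elf3, -1.96 for Sox10 and -1.14 for Sox9. No paired analysis was possible because the labels give no replicate numbers; those used follow accession order and pair nothing. Without each library in turn, 8588 to 9230 genes were called. Sox2 had 51 to 93 counts in controls, the lowest of the 9 factors.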
